A study of Mus musculus with 2 samples.

Results

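Of the 31053 genes in the annotation of both count matrices, 10 genes of redox and metal defence were described: Hmox1, Nqo1, Gclm, Gclc, Srxn1, Txnrd1, Prdx1, Mt1, Mt2 and Fth1. They were chosen by name, as an antioxidant, iron and metallothionein set, with earlier results of these data known. Their raw unique molecular identifier (UMI) counts were summed in each library over cells gated by marker genes. All 10 genes had UMIs in both libraries.

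The cells came from small subcutaneous B16F10 melanomas, a mouse melanoma line on the C57BL/6 background, profiled by droplet 3′ single-cell RNA-seq. The WT library held 2 pooled tumours from Rosa26::CreERT2 hosts with unfloxed Atf4 (Atf4 WT/WT), and the KO library held 2 pooled tumours from Rosa26::CreERT2 hosts whose floxed Atf4 had been excised (Atf4 Δ/Δ). Hosts of both genotypes carried the Cre and received tamoxifen by oral gavage, and both pools are labelled as 11 weeks old and as mixed male and female. Because Cre was expressed from Rosa26, excision was not limited to one host cell type, whereas the injected melanoma cells kept their own Atf4 in both hosts. Some Atf4 UMIs remained in the KO host classes, 69 in macrophages and 30 in CAFs, and whether they came from unexcised cells or from free RNA was not tested. With 1 library per genotype there was no replicate, so no test was made, and every interval below is a 95% counting interval that covers counting error only.

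NRF2, the product of Nfe2l2, is held back by KEAP1 and, once released by oxidants or electrophiles, drives genes through antioxidant response elements (AREs). Its classic targets include the enzymes of glutathione synthesis, thioredoxin recycling, quinone reduction and haem breakdown, and BACH1 represses several of them. Metallothioneins bind zinc, copper and cadmium and are switched on through metal response elements (MREs) by MTF1, and also by glucocorticoids and hypoxia, while ferritin is held in check after transcription by iron regulatory proteins that bind a hairpin in its messenger RNA.

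Sequences of the promoters of Srxn1, Mt1 and Mt2 are shown because these genes were among those with the largest differences between libraries, in melanoma cells for Srxn1 and in host cells for the metallothioneins. RefSeq promoter windows on GRCm38.p6 were matched for 8 of the 10 genes, in 11 windows, and Hmox1 and Gclc had none. Each window was searched on both strands over the 250 bases before the start for an MRE, TGCACNC or TGCGCNC, and for an ARE, TGACNNNGC or TGAGTCAGC. The MRE letters were found in 21.4% of 32851 mouse promoter windows of that length and the ARE letters in 10.5%. Capitals mark the matches, the strand is plus for all, and the stretch printed stops before the first base of the gene in GENCODE. For Srxn1 (chr2:152105274-152105515) the capitals are an ARE match and, after it, an MRE match on the minus strand, for Mt1 (chr8:94178839-94179081) an MRE match, and for Mt2 (chr8:94172368-94172617) 3 MRE matches, the last on the minus strand, and 1 ARE match, which comes between the second and the third of them.
Srxn1: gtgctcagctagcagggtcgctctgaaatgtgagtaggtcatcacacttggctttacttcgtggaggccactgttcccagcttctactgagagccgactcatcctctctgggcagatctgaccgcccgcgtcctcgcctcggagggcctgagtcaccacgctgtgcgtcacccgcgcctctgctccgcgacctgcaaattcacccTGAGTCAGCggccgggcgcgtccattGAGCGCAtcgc
Mt1: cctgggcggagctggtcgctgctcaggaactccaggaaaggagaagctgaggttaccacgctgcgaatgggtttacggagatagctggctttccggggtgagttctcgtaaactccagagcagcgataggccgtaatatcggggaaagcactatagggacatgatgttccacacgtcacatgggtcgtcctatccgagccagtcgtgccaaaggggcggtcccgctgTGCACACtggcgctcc
Mt2: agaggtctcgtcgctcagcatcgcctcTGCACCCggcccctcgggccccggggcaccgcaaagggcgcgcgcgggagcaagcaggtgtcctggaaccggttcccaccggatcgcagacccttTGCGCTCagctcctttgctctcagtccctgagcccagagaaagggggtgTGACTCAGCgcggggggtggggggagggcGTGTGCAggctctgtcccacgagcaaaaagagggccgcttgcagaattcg

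The ARE letters in the Srxn1 and Mt2 windows also hold the AP-1 letters TGAGTCA and TGACTCA. GENCODE lists other Mt1 transcripts that begin downstream of the Mt1 window, so that window lies further from them. The bases between the window and those later starts were not searched. The matches printed for Mt1 are therefore not all that its promoter may hold, and their number cannot be set against that of Mt2. For Mt2 the window ends at base 94172617, and the gene begins at 94172664 in GENCODE. The bases between were not searched either, so the Mt2 matches may also not be all. The windows of Gclm held 2 MRE matches and 1 ARE match, those of Prdx1 and the second of 3 Txnrd1 windows 1 ARE match each, and those of Nqo1 and Fth1 none. A match describes the letters in the window and is not a binding site. Fth1 is shown by its iron responsive element, the hairpin through which iron controls ferritin translation, in the 5′ UTR of transcript Fth1-201 of GENCODE on GRCm38 (chr19:9982732-9982761, plus strand), where capitals mark the 6-base loop CAGTGC and the 5 bases on each side pair with each other.
Fth1: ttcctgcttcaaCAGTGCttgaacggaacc

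After filtering, 3861 of 6304 WT barcodes and 3557 of 5474 KO barcodes were kept, and 10 barcodes of the deposited lists occurred in both libraries. The gates gave 1834 WT and 1992 KO melanoma cells, 806 and 652 macrophages, 225 and 136 monocytes, 192 and 217 cancer-associated fibroblasts (CAFs), 77 and 27 endothelial cells, and 20 and 7 T or NK cells, and each class held 3 to 5 of its own markers and none of another class among its 10 leading genes. Median depth was 11351.5 and 10645 UMIs in melanoma cells, 2435.5 and 2431.5 in macrophages and 3746 and 3739 in CAFs. Atf4 followed the labels: its KO over WT log2 ratio was -2.09 in macrophages, -3.19 in monocytes and -2.92 in CAFs, against -0.11 in melanoma cells. Although both pools are labelled as mixed, the kept WT cells held 0 UMIs of the Y-linked genes Ddx3y, Eif2s3y, Kdm5d and Uty and the kept KO cells 294, so host sex and genotype were partly confounded, and the host genes past the rule are also given below by whether KO cells carried Xist or Y-linked UMIs. Erythroid markers, which come from red cells, summed to 455 CPM (UMIs scaled to the same total in every class) in WT CAFs, 167 in WT melanoma cells and 113 in WT macrophages, and to 0, 0.0471 and 0.593 CPM in the KO classes.

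Levels are given as such CPM values. The order of classes differed among the genes, though Mt1 and Mt2 had the same order in each library. Hmox1 and Fth1 were highest in macrophages of both libraries, Prdx1 and Txnrd1 in melanoma cells (for Txnrd1 in the WT library with an interval that overlapped that of monocytes), and Mt1 and Mt2 in CAFs. Gclm was nearly level in melanoma cells and macrophages and lower in CAFs, the intervals of Gclc overlapped between most classes, and Nqo1 was at most 6.41 CPM except in KO endothelial cells, at 50.4 CPM (18.5 to 109.8) from 6 UMIs. Together the 10 genes took 0.962% of the UMIs of WT melanoma cells and 1.19% of those of KO melanoma cells, 2.24% and 2.51% in macrophages, 1.06% and 1.25% in monocytes, 0.664% and 1.37% in CAFs, and 0.4005% and 0.419% in endothelial cells. The CAF share was thus the one that differed most between libraries, and Mt1 and Mt2 made up 0.249% of WT and 0.750% of KO CAF UMIs.

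**Figure D1:**
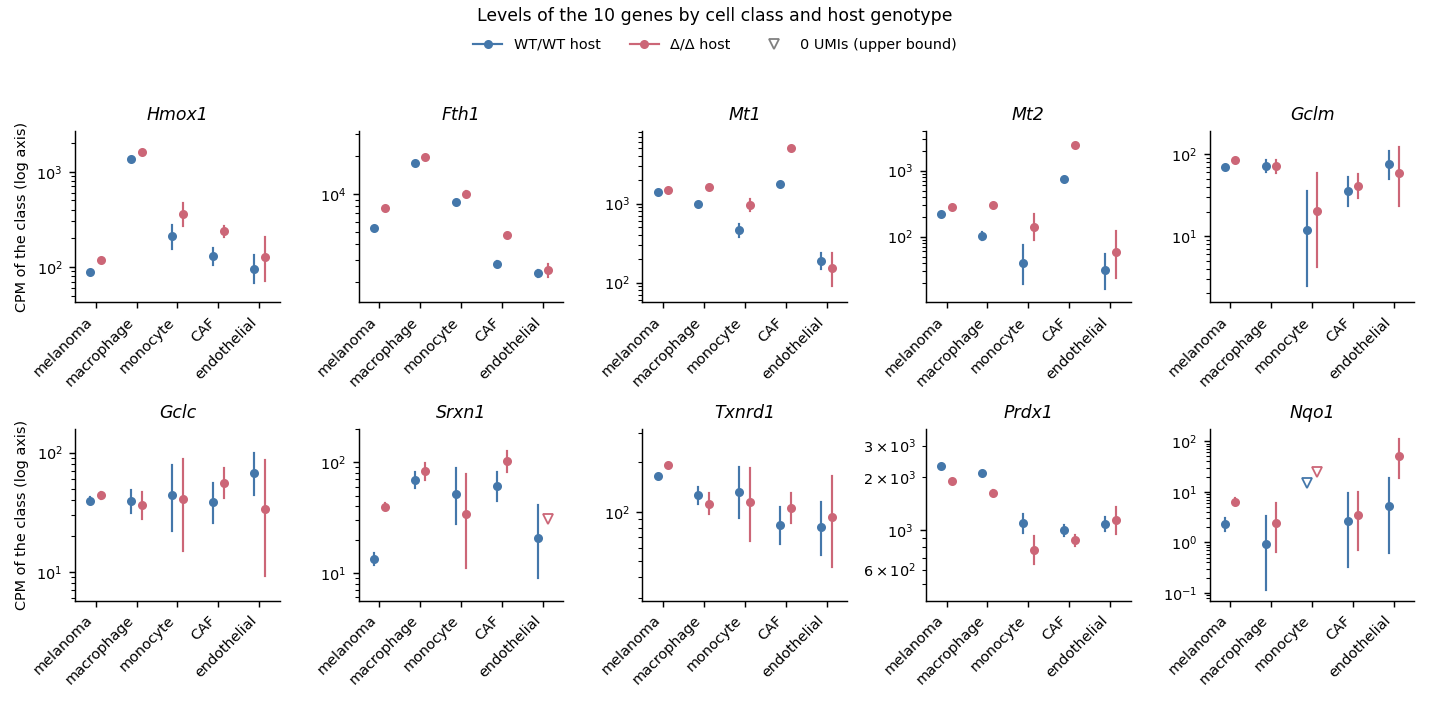
Level of each of the 10 genes, in CPM on a log axis, in 5 cell classes (x axis) of the WT/WT host library (blue) and the Δ/Δ host library (red), with bars for the exact Poisson 95% counting interval and open triangles for the upper bound where no UMI was counted. Mt1 and Mt2 stand highest in CAFs and Hmox1 and Fth1 in macrophages, in both libraries.

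A gene was counted as higher or lower in a class when its KO over WT ratio was past 1.5-fold, its counting interval left out 1 and both libraries together held at least 20 UMIs. In melanoma cells all 10 genes had that many UMIs, and 2 were higher (Nqo1 and Srxn1) and 0 lower, where 6.83% of the 12416 genes with 20 UMIs were higher and 3.92% lower. In macrophages 2 of 9 were higher (Mt1 and Mt2) and 0 lower, against 5.36% and 4.77% of 8820 genes. In monocytes 3 of 6 were higher (Hmox1, Mt1 and Mt2) and 0 lower, against 4.76% and 4.21%. Of these, Hmox1 was not past the rule with a stricter gate (log2 ratio 0.59). Nor was Mt2 after free RNA was subtracted or in cells with Xist, where fewer than 20 UMIs were left in each case. Neutrophil markers summed to 44.2 CPM in WT and 466 CPM in KO monocytes, 3 of 5 having UMIs in each, and their part in these values was not tested. In CAFs 5 of 9 were higher (Hmox1, Srxn1, Mt1, Mt2 and Fth1) and 0 lower, against 6.75% and 8.88% of 7230 genes. In endothelial cells 0 of 7 were higher or lower, against 5.63% and 3.42%, and in T or NK cells 1 gene, Fth1, reached 20 UMIs and was higher, against 6.78% and 7.34% of 177 genes. The median log2 ratio of the genes with 20 UMIs was 0.33 in melanoma cells, 0.16 in macrophages, 0.50 in monocytes and 0.74 in CAFs, against 0.02, -0.01, -0.04 and -0.05 over all genes with 20 UMIs. Because the 10 genes were chosen with earlier results of these data known, these counts and medians are a description only. The 2 metallothioneins were thus past the rule in macrophages, monocytes and CAFs and not in melanoma cells, whereas Nqo1 was past it in melanoma cells and had too few UMIs in every host class.

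**Figure D2:**
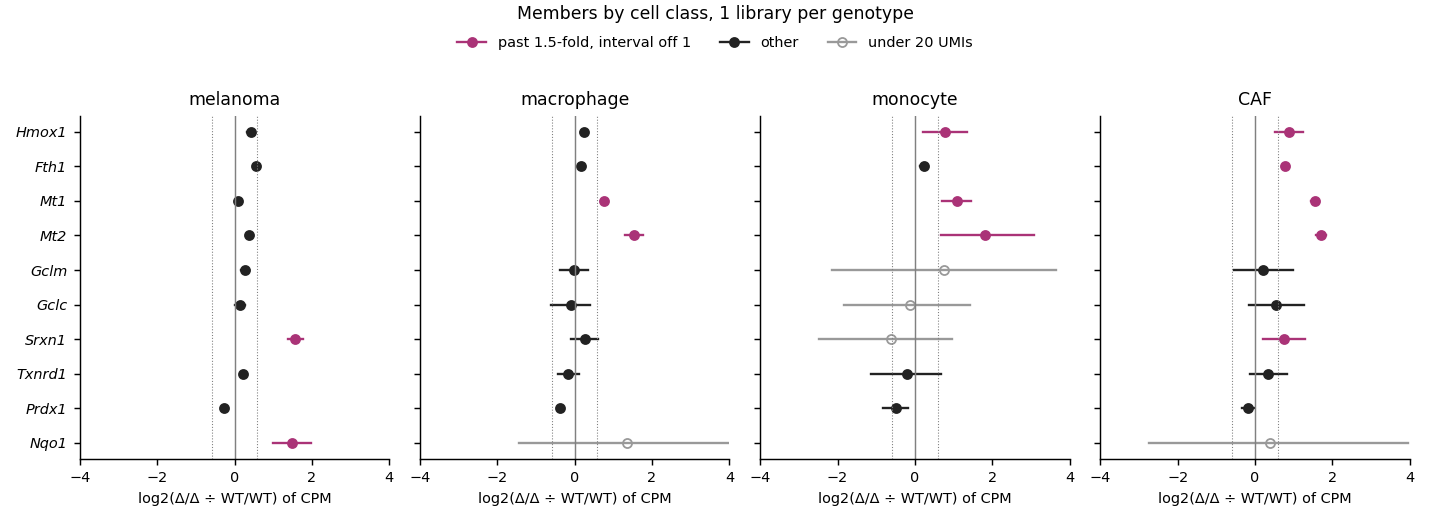
Log2 of the ratio of CPM in the Δ/Δ host library to that in the WT/WT host library for each gene (rows) in 4 cell classes, with exact 95% counting intervals, cut at the axis limits, and dotted lines at 1.5-fold; purple marks genes past the rule and open grey circles genes with fewer than 20 UMIs. Mt1 and Mt2 lie right of the dotted line in the 3 host classes, and Prdx1 lies left of 0 in all 4 classes.

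Hmox1 (chr8:75093621-75100589, GRCm38) encodes haem oxygenase 1, which opens haem to biliverdin, carbon monoxide and iron. In macrophages it counted 2956 UMIs in the WT library and 2740 in the KO library, or 1370.2 and 1626 CPM, a log2 ratio of 0.25 (0.17 to 0.32). In melanoma cells it counted 1812 and 2517 UMIs, or 88.8 and 119 CPM (0.42, 0.33 to 0.51). Both differences were larger than counting error and smaller than 1.5-fold. In monocytes the counts were 52 and 53 UMIs, or 209 and 358 CPM (0.78, 0.20 to 1.36). In CAFs they were 97 and 206 UMIs, or 129 and 236 CPM (0.88, 0.52 to 1.24). Hmox1 was thus higher in the KO library in each of these 4 classes taken as a whole. In macrophages this did not hold on each side of the splits by marker genes given below. In endothelial cells, with 37 and 15 UMIs, the interval of the log2 ratio ran from -0.58 to 1.29.

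The CAF difference of Hmox1 rested in part on single cells. One KO CAF held 44 of the 206 UMIs, and the WT cell with the most held 11 of 97. Without these 2 cells the levels were 115 and 187 CPM and the log2 ratio 0.70 (0.32 to 1.10). The share of CAFs with an Hmox1 UMI, after each cell was thinned to 2000 UMIs, was 19.5% of 164 WT cells (13.8% to 26.4%) and 21.9% of 183 KO cells (16.1% to 28.6%), so the shares of cells overlapped while the summed levels did not. In CAFs, macrophage markers summed to 70.3 CPM for the WT library, where 7 of 7 had UMIs, and to 42.4 CPM for the KO library, where 6 had. The part of other cell types in the CAF value was not tested.

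Fth1 (chr19:9980598-9985098) encodes the ferritin heavy chain, the iron-oxidising subunit of the iron store. It counted 37900 and 33056 UMIs in macrophages, or 17568 and 19613 CPM (log2 ratio 0.16, 0.14 to 0.18). In melanoma cells it counted 108722 and 165171 UMIs, or 5328 and 7786 CPM, 1.46-fold (1.45 to 1.47). In CAFs it counted 2110 and 4140 UMIs, or 2797 and 4741 CPM, 1.70-fold (1.61 to 1.79). Fth1 was thus higher in the KO library in all 3, past the rule in CAFs and just short of it in melanoma cells. In monocytes the levels were 8588 and 10052 CPM (0.23, 0.13 to 0.32) and in endothelial cells 2353 and 2479.8 CPM (0.08, -0.12 to 0.27). Ftl1, the ferritin light chain, which pairs with Fth1 in the same shell, did not share this pattern: its level was 8947 and 8935 CPM in melanoma cells, 19231 and 15631 CPM in macrophages (-0.30, -0.32 to -0.28) and 2312 and 2465 CPM in CAFs. Both ferritins have processed pseudogenes in the mouse genome, so reads could be split between copies.

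Mt1 (chr8:94179082-94180327) and Mt2 (chr8:94172664-94173568) encode the widely expressed metallothioneins, small cysteine-rich proteins that buffer zinc and copper, and lie 5513 bases apart on the same strand. In CAFs Mt1 counted 1322 UMIs in the WT library and 4443 in the KO library, or 1753 and 5088 CPM, 2.90-fold (2.73 to 3.09). Mt2 counted 558 and 2109 UMIs there, or 739.8 and 2415 CPM, 3.27-fold (2.97 to 3.59). These were the largest of the 10 genes' ratios in CAFs. In macrophages Mt1 counted 2111 and 2772 UMIs, or 979 and 1645 CPM, 1.68-fold (1.59 to 1.78), and Mt2 222 and 504 UMIs, or 103 and 299 CPM, 2.91-fold (2.48 to 3.42). In monocytes Mt1 was at 458 and 966 CPM, 2.11-fold (1.64 to 2.72), and Mt2, from 10 and 21 UMIs, at 40.2 and 142 CPM. Mt2 thus had the larger ratio of the pair in each of these 3 host classes. The intervals of the pair overlapped in CAFs and in monocytes, where that of Mt2 ran from 1.59-fold to 8.40-fold, and were apart in macrophages.

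Over all melanoma cells the metallothioneins were higher in the KO library beyond counting error and by less than 1.5-fold. For Mt1 this did not hold on each side of the splits by hypoxia and proliferation genes given below. Mt1 counted 28253 and 31417 UMIs, or 1385 and 1481 CPM (log2 ratio 0.10, 0.07 to 0.12), and Mt2 4455 and 6026 UMIs, or 218 and 284 CPM (0.38, 0.32 to 0.44). Endothelial cells showed no difference beyond counting error, with 189.6 and 151 CPM of Mt1 (-0.33, -1.16 to 0.43) and 31.2 and 58.8 CPM of Mt2, the latter from 12 and 7 UMIs. The metallothionein ratios were therefore past 1.5-fold in macrophages, monocytes and CAFs and below it in melanoma cells, and whether they differed between classes was not tested. An antisense gene, Gm45774, overlaps Mt2.

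The difference was spread over cells. After thinning to 2000 UMIs, an Mt1 UMI was found in 73.2% of the 164 WT CAFs (65.7% to 79.8%) and in 90.7% of the 183 KO CAFs (85.5% to 94.5%), and the median cell held 2 and 9. For Mt2 the shares were 46.3% (38.5% to 54.3%) and 88.5% (83.0% to 92.8%), with medians of 0 and 4. The 10% of cells with the most Mt1 held 49.6% of its UMIs in WT and 32.2% in KO CAFs, so the KO counts came less from a few cells. Without thinning, which left out 28 and 34 shallower cells, the Mt2 shares were 59.9% and 91.7%. In macrophages, Mt1 was found in 73.3% of 525 WT and 85.5% of 414 KO thinned cells, and Mt2 in 18.9% (15.6% to 22.5%) and 36.5% (31.8% to 41.3%). In melanoma cells the Mt2 shares were 29.4% and 38.7%.

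**Figure D3:**
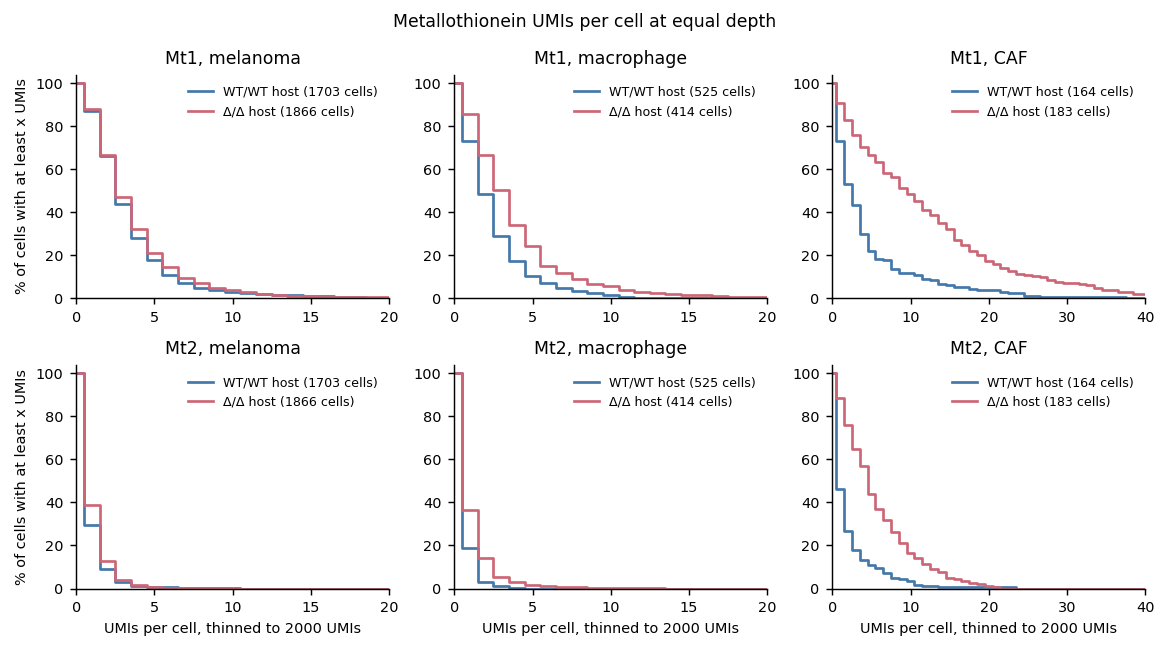
Percent of cells (y axis) with at least the number of Mt1 (top) or Mt2 (bottom) UMIs on the x axis after each cell was thinned to 2000 UMIs, in melanoma cells, macrophages and CAFs of the WT/WT (blue) and Δ/Δ (red) host libraries. In CAFs the curve of the Δ/Δ library lies above that of the WT/WT library over most of the range, and in melanoma cells the Mt1 curves nearly coincide.

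Free RNA in droplets was gauged by Dct, a pigment gene of melanoma cells that host cells should lack. Thinned to the same depth, a Dct UMI was found in 29.9% of WT and 30.6% of KO CAFs and in 40.6% and 39.1% of macrophages. The share of cells with Dct was thus alike in both libraries. Dct gauges RNA of melanoma cells alone. Erythroid markers were not alike, at 455 and 0 CPM in CAFs and 113 and 0.593 CPM in macrophages. From the melanoma markers, free RNA was put at 4.61% and 5.42% of CAF UMIs, its makeup being taken as that of all barcodes of the library. That would give 59.2 and 87.2 CPM of Mt1 and 9.50 and 18.3 CPM of Mt2, far below the levels measured in CAFs. In monocytes free RNA would give more, 166.8 and 195.5 CPM of Mt1, where 458 and 966 CPM were measured. For Mt2 it would give 26.78 and 41.12 CPM there, where 40.2 and 142 CPM were measured. Most of the Mt2 level of WT monocytes could thus be free RNA. After free RNA was subtracted, Mt1 in monocytes stayed past the rule (log2 ratio 1.40). Within CAFs, Mt1 and Mt2 counts went together over cells, with a Spearman correlation of 0.65 over 164 WT cells and 0.77 over 183 KO cells, cells that share a library and depth. In macrophages that correlation was 0.25 and 0.28, and in melanoma cells 0.28 and 0.30. Hmox1 with Fth1 gave 0.26 and 0.10 in macrophages, and from 0.03 to 0.13 in melanoma cells and CAFs. The other pairs examined, Gclm with Gclc, Nqo1 with Txnrd1 and Srxn1 with Txnrd1, gave correlations from -0.04 to 0.09 in these classes, too weak to read in sparse counts.

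Gclm (chr3:122245557-122270732) and Gclc (chr9:77754535-77794485) encode the modifier and catalytic subunits of glutamate-cysteine ligase, the first step of glutathione synthesis. In melanoma cells Gclm counted 1441 and 1817 UMIs, or 70.6 and 85.7 CPM (log2 ratio 0.28, 0.18 to 0.38), and Gclc 809 and 928 UMIs, or 39.6 and 43.7 CPM (0.14, 0.00 to 0.28). Neither was past 1.5-fold. In macrophages Gclm was at 72.3 and 71.2 CPM (-0.02, -0.38 to 0.33) and Gclc at 38.9 and 36.2 CPM (-0.11, -0.61 to 0.39). In CAFs Gclm counted 27 and 36 UMIs (0.20, -0.56 to 0.98) and Gclc 29 and 49 UMIs (0.55, -0.15 to 1.26), so a difference of up to 2.40-fold in Gclc was within counting error. Gclm shares bases with a pseudogene on its own strand, Gm6061, and with Gm17494 on the other.

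Srxn1 (chr2:152105516-152111376) encodes sulfiredoxin, which restores over-oxidised peroxiredoxins. In melanoma cells it counted 273 and 842 UMIs, or 13.4 and 39.7 CPM, 2.97-fold (2.58 to 3.41), the largest ratio of the 10 genes in that class. At equal depth a Srxn1 UMI was found in 2.70% of 1703 WT melanoma cells (1.98% to 3.59%) and in 7.72% of 1866 KO melanoma cells (6.55% to 9.02%). No single cell carried it, since the highest held 5 and 13 UMIs. In CAFs it counted 46 and 89 UMIs, or 61.0 and 102 CPM, 1.67-fold (1.16 to 2.44). In macrophages it counted 150 and 140 UMIs, or 69.5 and 83.1 CPM (0.26, -0.09 to 0.60), in monocytes 13 and 5 UMIs, and in endothelial cells 8 and 0. WT melanoma cells thus had a lower Srxn1 level than WT macrophages or CAFs, with intervals that did not overlap.

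Txnrd1 (chr10:82833951-82897712) encodes the cytosolic thioredoxin reductase, which returns thioredoxin to its reduced form. It counted 3363 and 4101 UMIs in melanoma cells, or 165 and 193 CPM (log2 ratio 0.23, 0.16 to 0.30), 272 and 189 UMIs in macrophages (-0.17, -0.44 to 0.10) and 63 and 92 UMIs in CAFs (0.34, -0.14 to 0.82). Prdx1 (chr4:116685544-116700822), an abundant peroxiredoxin that removes hydrogen peroxide, was lower in the KO library in the same 3 classes by less than 1.5-fold. Its levels were 2305 and 1901 CPM in melanoma cells (-0.28, -0.30 to -0.26), 2093 and 1617 CPM in macrophages (-0.37, -0.44 to -0.30) and 1002 and 879.6 CPM in CAFs (-0.19, -0.34 to -0.04). In monocytes they were 1096 and 777 CPM (-0.50, -0.82 to -0.18), and in endothelial cells 1086 and 1135 CPM (0.06, -0.23 to 0.35). In the KO CAFs that carried Xist, a subset described below, Prdx1 was at 1089 CPM, against 1004 CPM in the matching WT cells, so its CAF direction turned there. Prdx1, whose processed pseudogenes could also share reads, was the one gene of the 10 that was lower in the KO library beyond counting error in all cells of these 4 classes. Txnrd1 overlaps Eid3 on the same strand.

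Nqo1 (chr8:107388225-107403206, minus strand) encodes a quinone reductase that is a standard readout of NRF2. It counted 47 UMIs in WT and 136 in KO melanoma cells, or 2.30 and 6.41 CPM, 2.78-fold (1.98 to 3.97). At equal depth a UMI was found in 0.176% of WT (0.0363% to 0.514%) and 1.45% of KO melanoma cells (0.956% to 2.10%), and without thinning in 2.56% and 6.48%. No cell held more than 2 Nqo1 UMIs. The host classes gave 2 and 4 UMIs in macrophages, 2 and 3 in CAFs, 0 and 0 in monocytes, and 2 and 6 in endothelial cells, which are too few to compare. The 0 counts have upper bounds of 14.8 CPM in WT and 24.9 CPM in KO monocytes.

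The KO pool held cells of both sexes, which allowed its hosts to be looked at apart. Of the KO CAFs, 55 held Xist without Y-linked UMIs and 48 the reverse, and of the KO macrophages 71 and 105, while in the WT library 156 CAFs and 591 macrophages had Xist and none a Y-linked UMI. Mt1 stood at 1889.8 CPM in WT CAFs with Xist, 4744 CPM in KO CAFs with Xist and 4799.95 CPM in KO CAFs with Y-linked UMIs. Mt2 stood at 794, 2069 and 2334 CPM. Both groups of KO CAFs were thus above the WT cells and alike to each other, with a log2 ratio of Xist over Y-linked cells of -0.02 (-0.14 to 0.11) for Mt1 and -0.17 (-0.36 to 0.01) for Mt2.

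Hmox1, Srxn1 and Gclc behaved otherwise. Hmox1 was at 131 CPM in WT CAFs with Xist, 467 CPM in KO CAFs with Xist and 139 CPM in KO CAFs with Y-linked UMIs. One cell held 44 of the 90 Hmox1 UMIs of the KO CAFs with Xist. Srxn1 was at 60.8, 192 and 69.3 CPM and Gclc at 42.1, 88.1 and 23.1 CPM. KO CAFs with Xist were thus higher than KO CAFs with Y-linked UMIs by 3.36-fold for Hmox1, 2.77-fold for Srxn1 (log2 1.47, 0.62 to 2.37) and 3.81-fold for Gclc (1.93, 0.52 to 3.56), and these 3 genes of 8 with 20 UMIs were past the rule, and none lower, against 4.47% and 5.05% of 3267 genes. For each of these 3 genes the ratio within the KO pool was larger than that between all CAFs of the libraries, and KO CAFs with Y-linked UMIs did not differ from WT CAFs with Xist beyond counting error in Hmox1 (0.08, -0.52 to 0.66) or Srxn1 (0.19, -0.70 to 1.03). Fth1 was at 2828 CPM in WT CAFs with Xist, 5709 CPM in KO CAFs with Xist (2.02-fold) and 4010.2 CPM in KO CAFs with Y-linked UMIs (1.42-fold, short of the rule). Sex, host and tumour cannot be told apart within that pool.

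In macrophages the metallothioneins were above WT cells with Xist in both groups of KO cells. Mt1 was at 964 CPM in WT cells with Xist, 1863 CPM in KO cells with Xist and 1569.6 CPM in KO cells with Y-linked UMIs, and Mt2 at 99.4, 444 and 286 CPM. Hmox1 was at 1464, 2394 and 1843 CPM, past 1.5-fold for KO cells with Xist alone (log2 ratio 0.71, 0.57 to 0.85). Within the KO library, 1 of 9 genes with 20 UMIs, Mt2, was higher in macrophages with Xist than in those with Y-linked UMIs (0.64, 0.21 to 1.06) and none lower, against 2.22% and 4.32% of 3566 genes. In monocytes, from 16 KO cells with Xist and 18 with Y-linked UMIs, Hmox1 counted 25 UMIs in WT cells with Xist and 14 and 3 in these KO cells (191, 574 and 159 CPM). Mt1 was at 473, 1229 and 1169 CPM, and Mt2 counted 5, 3 and 2 UMIs, too few to compare. Atf4 was low in both groups of KO cells, with 11 and 15 UMIs in macrophages and 4 and 8 in CAFs.

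**Figure D4:**
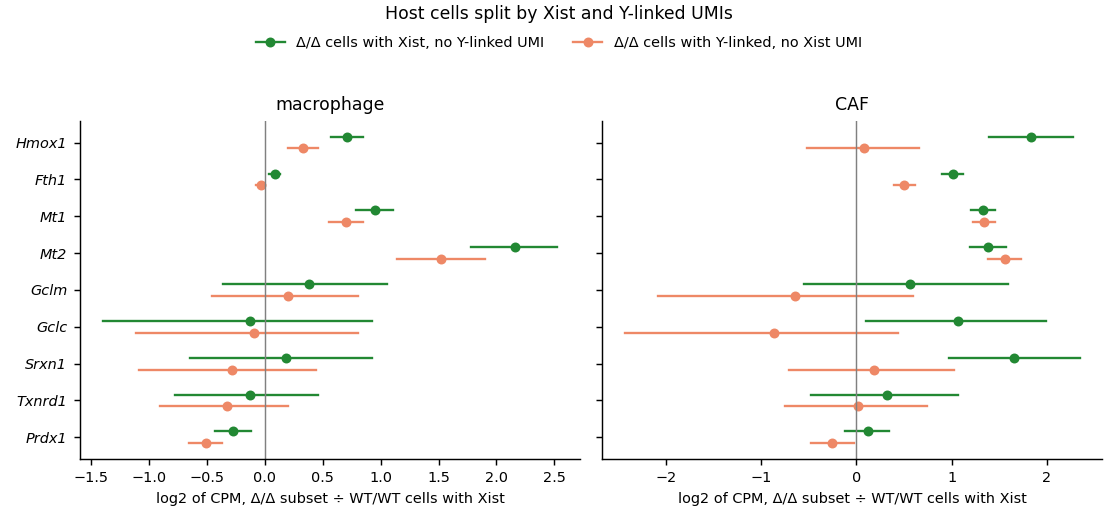
Log2 ratio of CPM of 9 genes (rows) in KO macrophages and CAFs that held Xist without Y-linked UMIs (green) or the reverse (orange), each over WT cells of the same class with Xist, with exact 95% counting intervals; both series share the WT cells. In CAFs Mt1 and Mt2 give nearly the same ratio in both groups, while for Hmox1 the intervals of the groups do not overlap and for Srxn1 they barely meet.

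Macrophages were also split by markers within each library. Cells with at least 2 UMIs of the resident-type genes Lyve1, Cd163, Folr2 and F13a1, 463 in the WT and 441 in the KO library, were deeper (median 2923 and 2863 UMIs, against 1897 and 1620 in the rest), since such a gate favours deep cells. Their Hmox1 level was 1662 CPM in the WT and 1889.6 CPM in the KO library, against 768 and 712 CPM in the other macrophages, a log2 ratio of 1.11 (0.98 to 1.25) and 1.41 (1.23 to 1.59). Fth1 was nearly level between these groups of WT cells, at 17550.4 and 17605 CPM, and lower in the resident-type KO cells than in the other KO macrophages, at 18857 and 22227 CPM (-0.24, -0.27 to -0.20). Mt1 and Mt2 were higher in KO than WT cells on both sides of the split, Mt2 by 1.52 (1.27 to 1.78) on the log2 scale in resident-type cells and 1.05 (0.45 to 1.65) in the rest. In the 56 WT and 95 KO macrophages with at least 2 Arg1 UMIs, Hmox1 was at 2570.4 and 2299 CPM and Mt2 at 201 and 446 CPM, above the other macrophages of the same library (1287 and 1508 CPM of Hmox1, 96.1 and 273 CPM of Mt2). Srxn1 in Arg1 macrophages was lower in the KO library, at 179.5 and 67.7 CPM from 25 and 17 UMIs, and higher in the others (61.9 and 85.7 CPM). Macrophages whose share of MHC class II UMIs was above the median of both libraries (450 WT and 256 KO cells) had less Hmox1 than the rest, 1150.5 against 1626 CPM in the WT and 1173 against 1851 CPM in the KO library. Between libraries, the log2 ratio of Hmox1 was 0.18 (0.10 to 0.27) in resident-type macrophages and -0.11 (-0.32 to 0.11) in the rest. It was -0.16 (-0.35 to 0.03) in Arg1 macrophages and 0.23 (0.15 to 0.31) in the rest. For MHC class II it was 0.03 (-0.11 to 0.16) above the median and 0.19 (0.09 to 0.28) in the rest. The part of this makeup in the Hmox1 value of all macrophages was not tested.

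Among melanoma cells, those whose share of UMIs from the hypoxia genes Vegfa, Slc2a1, Bnip3, Ndrg1, Car9 and Ankrd37 was above percentile 75 of both libraries (396 WT and 561 KO cells) had more metallothionein and haem oxygenase RNA. The hypoxic cells had 2438 CPM of Mt1 in the WT and 2469.8 CPM in the KO library, against 1152 and 1151 CPM in the rest. Hmox1 was at 157 and 218 CPM, against 73.7 and 85.4 CPM. Within hypoxic and other cells, Mt1 gave log2 ratios between libraries of 0.02 (-0.02 to 0.06) and -0.00 (-0.03 to 0.03), and Mt2 was higher in the KO library on both sides, by 0.17 (0.08 to 0.26) and 0.35 (0.28 to 0.42). Srxn1 kept its difference between libraries in both, at 18.7 and 49.7 CPM in hypoxic cells and 12.2 and 36.3 CPM in the rest, and Fth1 was higher in the KO library by 0.75 (0.72 to 0.77) and 0.48 (0.47 to 0.49) on the log2 scale.

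Cycling melanoma cells, with at least 3 of 5 proliferation genes detected, numbered 1225 in the WT and 1030 in the KO library. They had less Hmox1 than the other melanoma cells, 70.9 against 151 CPM in the WT and 86.2 against 171 CPM in the KO library. Txnrd1 went the other way, at 172 against 139 CPM and 209 against 167 CPM. Srxn1 was higher in the KO library among cycling cells (12.4 and 30.9 CPM) and among the others (16.8 and 54.0 CPM). Mt1 was higher in the KO library among cycling cells (log2 ratio 0.09, 0.06 to 0.12) and lower among the others (-0.08, -0.12 to -0.05). In CAFs, the 14 WT and 12 KO cells with at least 2 UMIs of pericyte genes had less Mt2, 116 and 492 CPM, than the other CAFs, at 811 and 2539 CPM, and Mt2 was higher in the KO library in both groups.

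The other genes of these pathways were taken from 7 lists of 80 genes, also chosen with earlier results of these data known. In melanoma cells 9 of the 74 genes with 20 UMIs were higher in the KO library and 2 lower, where 6.83% and 3.92% of all genes with 20 UMIs were. Of the 9 higher genes, 5 were among 19 other NRF2 targets: Blvrb, a biliverdin and flavin reductase (24.0 and 69.9 CPM, log2 ratio 1.54, 1.396 to 1.695), Slc7a11, the cystine importer (11.6 and 25.8 CPM, 1.16, 0.94 to 1.39), G6pdx, the entry to the pentose phosphate route (23.2 and 38.8 CPM, 0.74), Osgin1 (8.77 and 14.6 CPM, 0.73) and Gstm1 (24.9 and 40.2 CPM, 0.69). The 2 lower genes, the glutathione transferases Gsta1 (93.7 and 59.7 CPM, -0.65) and Gsta4 (99.1 and 56.3 CPM, -0.82), belong to the same list. The list therefore moved in both directions, with a median log2 ratio of 0.16, and 0 of 7 genes of the NRF2 regulators, 0 of 12 of the glutathione list and 0 of 9 of the thioredoxin list were past the rule. Nfe2l2 was at 83.5 and 82.1 CPM (-0.02, -0.12 to 0.07), Keap1 at 31.7 and 39.8 CPM (0.33, 0.18 to 0.48) and Bach1 at 17.0 and 17.6 CPM. The remaining 4 higher genes were Sod3, Cp, Cd163 and Lcn2, of which Cd163 and Lcn2 are markers of macrophages and of neutrophils or inflamed epithelium, at 6 and 20 and at 3 and 63 UMIs.

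In macrophages 7 of 68 of these genes were higher and 1 lower, against 5.36% and 4.77% of all genes. Iron genes gave 4 of the 7, namely Cp, the copper ferroxidase of iron export (17 and 63 UMIs, log2 ratio 2.25), the haemoglobin scavenger receptor Cd163 (66.3 and 189.9 CPM, 1.52), and the iron sensors Fbxl5 (0.98) and Ireb2 (0.91). Cd163 is also a gene of the resident-type gate, which held 463 of 806 WT and 441 of 652 KO macrophages. The part of this makeup in the Cd163 value was not tested. Tfrc, the transferrin receptor, was the lower gene, at 97.8 and 62.3 CPM (-0.65, -1.003 to -0.306). Slc40a1, the iron exporter, counted 33 and 28 UMIs (0.12, -0.66 to 0.89). The other 3 higher genes, Gpx3, Mgst1 and Gsto1, were glutathione enzymes. Of 17 other NRF2 targets, 0 were past the rule in macrophages, which differs little from that share of all genes, and Slc7a11 was at 28.7 and 19.6 CPM (-0.55, -1.21 to 0.08).

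In CAFs 11 of 63 were higher and 7 lower, against 6.75% and 8.88% of all genes, so the share of lower genes was near that of all genes. The higher genes included the mitochondrial superoxide dismutase Sod2 (141 and 401 CPM, log2 ratio 1.51, 1.19 to 1.84), the glutaredoxin Glrx (10 and 57 UMIs, 2.30), the peroxiredoxins Prdx5 (366 and 687 CPM, 0.91) and Prdx6 (209 and 391 CPM, 0.90), Lcn2 (5 and 38 UMIs, 2.71), Cp (1.36), and the NRF2 targets Pgd, Me1, Abcc1, Ephx1 and Ugdh, which ran from 0.82 to 1.51. The lower genes were Txnrd2, Mafk, Mgst3, Steap3, Gstp1, Gpx7 and Mafg, from -1.49 to -0.60. Nfe2l2 was at 142 and 148 CPM (0.06, -0.32 to 0.44), and Mtf1, the factor that drives metallothioneins, counted 6 and 8 UMIs, too few to compare. Neutrophil markers, of which S100a8 and S100a9 are the usual leaders, were at 0 in the WT CAFs and summed to 53.8 CPM in the KO CAFs, where 3 of 5 had UMIs. The part of other cells in the Lcn2 value was not tested. In monocytes 2 of 33 were higher, Glrx and Prdx5, and 1 lower, against 4.76% and 4.21% of all genes; the lower gene was Nfe2l2 (590.2 and 392 CPM, -0.59, -1.06 to -0.14).

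**Figure D5:**
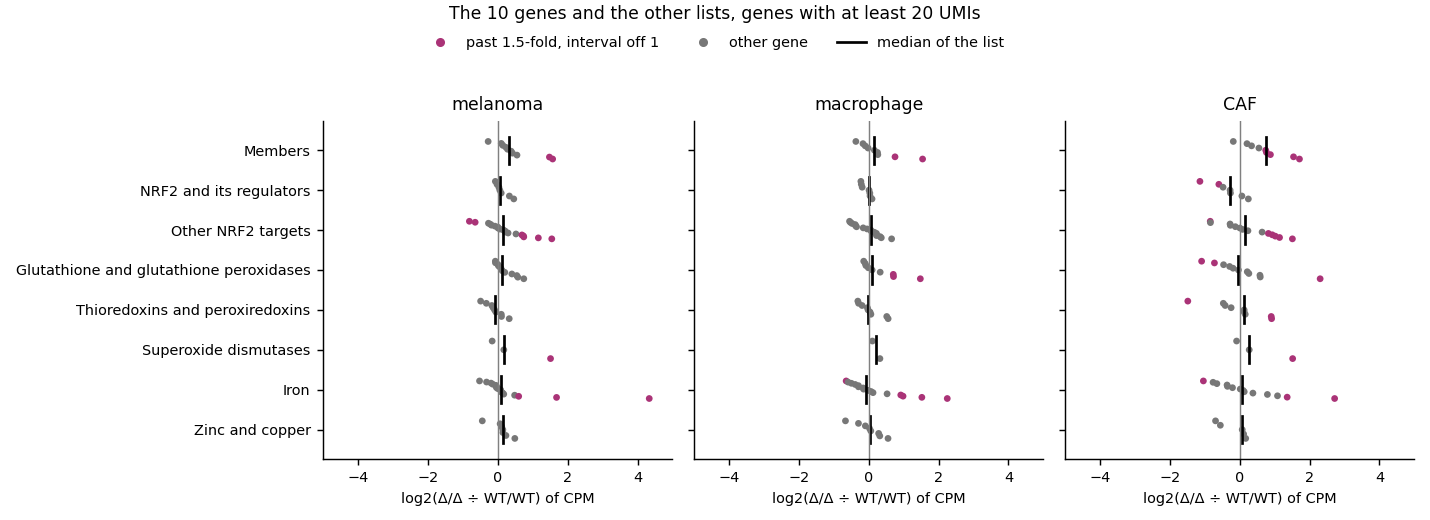
Log2 ratio of CPM, Δ/Δ over WT/WT host library, for the 10 genes (Members) and for 7 other lists of redox, iron and metal genes in melanoma cells, macrophages and CAFs; each point is a gene with at least 20 UMIs and a UMI in both libraries, purple points are past the rule and black bars are list medians. The median of the 10 genes is 0.33, 0.16 and 0.74, to the right of the medians of most other lists.

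Over the 10 sums of 5 classes and 2 libraries, the genes whose levels went most closely with each of the 10 were found among 9939 genes, as a description. Hmox1 went with Tmem106a (Pearson r = 0.98) and Cbr2 (0.97), Fth1 with Neurl2 (0.97) and Socs6 (0.96), and Mt1 with Hk2 (0.95) and Ak4 (0.94). Mt2 went with Usp47 (0.96) and Gmppa (0.94), Srxn1 with Ctps2 (0.94) and Myo9b (0.92), and Txnrd1 with Mbp and Hsd17b12 (both 0.96). Prdx1 went with Ndufc1 (0.97) and Cuedc2 (0.95), Gclm with Akip1 (0.96) and Bloc1s6 (0.93), Gclc with Dvl1 and Zfp568 (both 0.86), and Nqo1 with Btbd6 (0.95) and Ppp1r11 (0.94). Among the 10 genes themselves, Mt1 and Mt2 gave 0.90 and Hmox1 and Fth1 0.84. These correlations share depth, library and class and rest on 10 points.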

How the data were processed

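The values were raw UMI counts per gene and barcode, which the authors made with Cell Ranger 3.1.0 on GRCm38 and deposited as 1 matrix per library (version per the labels, which also name Seurat 3.2.1); the study's own text names this and an earlier Cell Ranger release, and a kit version other than that in the labels. Kept cells had between 200 and 5000 genes and no more than 7.5% of UMIs from mitochondrial genes. The WT library held 38417113 UMIs over all barcodes and the KO library 38290024. Cells were gated by the highest of 12 marker scores, which had to reach 0.3 and lead the next by 0.1. Markers were listed before scoring and the limits were set after the score distributions had been seen. The 10 genes, the pathway lists and the rule for named genes (pathway genes past 1.5-fold in melanoma cells, macrophages or CAFs, plus Nfe2l2, Keap1, Bach1, Mtf1, Slc7a11, Ftl1, Tfrc and Slc40a1) were chosen with earlier results of these data known. UMIs were summed per library and class. Intervals were exact at 95%: Poisson for CPM, Clopper-Pearson for shares and conditional binomial for ratios, the last tested on simulated data. In a ratio, a count of 0 in 1 library was set to 3 counts. For shares of cells, each cell was thinned to 2000 UMIs. Doublets were kept. Scrublet marked 114 WT and 50 KO cells, which were removed in an alternative. Gene likeness used log2(CPM + 10) of genes with 200 UMIs. Python 3.11.15, numpy 2.4.6, pandas 2.3.3, scipy 1.17.1, scanpy 1.11.5, igraph 0.11.9, R 4.3.3 and edgeR 4.0.16 (TMM factors only) were used.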

Additional observations from a re-analysis of the deposited data

Results flagged for a closer look

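Cells that passed no gate, 539 in the WT and 448 in the KO library, belong to none of the classes compared, and 4 of the 10 genes were past the rule there. The log2 ratio of KO over WT was 1.04 for Gclm (35 and 91 UMIs, 41.7 and 85.6 CPM), 0.96 for Srxn1 (30 and 74 UMIs, 35.7 and 69.6 CPM), 1.08 for Mt1 (1044 and 2785 UMIs, 1243 and 2620.1 CPM) and 1.71 for Mt2 (146 and 605 UMIs, 174 and 569 CPM). These cells are a mixture whose makeup can differ between libraries. Of the genes with 20 UMIs in them, 17.1% were higher and 13.7% lower in the KO library, more than in any gated class.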

How the results depend on the processing

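The counts of genes past the rule were recomputed with a mitochondrial limit of 15%, no upper limit on genes, doublets removed, stricter and looser gates, classes from clusters, no mitochondrial or ribosomal protein genes, TMM scaling, free RNA subtracted from host classes, host cells with Xist and no Y-linked UMI, and a minimum of 50 UMIs. The count of higher genes was 2 under each in melanoma cells, 2 to 3 in macrophages, 2 to 3 in monocytes, 5 to 6 in CAFs and 0 in endothelial cells. TMM scaling moved 2 counts. In monocytes 1 gene (Prdx1, log2 ratio -0.59) was then lower, against 0, and in T or NK cells 0 were higher, against 1 (Fth1, 0.54 against 1.06). It shifted ratios by -0.52 in T or NK cells and -0.18 in endothelial cells, and by less than 0.1 elsewhere. Over single genes, 363 recomputed ratios kept their value within counting error and 33 moved. Changes of sign were counted apart only where the counting interval of the log2 ratio left out 0, and there were 2. Fth1 in monocytes, 0.23, was -0.013 with classes from clusters, and Prdx1 in CAFs, -0.19, was 0.12 in host cells with Xist and no Y-linked UMI. Ratios within counting error of 0 also changed sign in places, such as Txnrd1 in endothelial cells, 0.20, which was -0.33 in cells with Xist. Mt1 and Mt2 in macrophages and CAFs, Srxn1 and Fth1 in CAFs, and Nqo1 and Srxn1 in melanoma cells stayed past the rule under each alternative run. KO cells with Y-linked UMIs were not among these alternatives. Against WT cells with Xist, Srxn1 (1.14-fold) and Fth1 (1.42-fold) were short of the rule in those CAFs. Mt1 and Mt2 were past it in those CAFs (2.54-fold and 2.94-fold) and macrophages (1.63-fold and 2.87-fold). Hmox1 in CAFs was not past it with classes from clusters (0.56), nor was Hmox1 in monocytes with the stricter gate (0.59). Mt2 in monocytes was not past it after free RNA was subtracted (3.06) or in cells with Xist, because fewer than 20 UMIs were left in each case. Gclc in CAFs passed it with classes from clusters and in cells with Xist, and Hmox1 in macrophages did in cells with Xist (0.71). Clusters gave no T or NK class. No paired analysis was possible because there was a single library of each genotype. Depth limits T or NK cells, where 1 of the 10 genes reached 20 UMIs, and also monocytes (6), endothelial cells (7) and Nqo1 in host cells.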
